A study of Mus musculus with 32 samples.

Results

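The comparison described here asks whether a dual agonist of the glucagon-like peptide 1 receptor (GLP1R) and the glucagon receptor (GCGR) altered liver transcripts differently before and after partial hepatectomy in mice on a standard diet. The means compared came from 16 of the study's 32 liver arrays, namely the 4 standard diet groups of 4 livers each. The spread between livers behind the p-values, and the filter on dim probes, came from all 32 arrays in 8 groups. For each gene the measure was a double difference on the log2 scale. The mean of the livers with hepatectomy but no agonist was subtracted from the mean of those with both, and the corresponding agonist difference in livers without hepatectomy was then subtracted. A positive interaction therefore means that the agonist difference was more positive after hepatectomy than before, and a negative one the reverse.

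All animals were male C57/BL6 mice and all 16 received a standard diet. The untreated group was fed it for 3 weeks. The agonist group received the dual agonist for 2 weeks at 4.4 mg/kg/day, given every other day. The hepatectomy group lost 70% of the liver and was sampled 2 weeks after surgery. The group with both received the agonist before the operation and again until sampling. Its labels say chow diet where those of the other groups say standard diet. The labels name no sham operation and no genetic change. Of these groups, only the untreated one has its weeks of diet in the labels. Surgery, time since surgery, any longer diet exposure and the longer agonist exposure of the group with both cannot be told apart. The same 4 conditions on a methionine and choline deficient (MCD) diet make up the other 16 arrays.

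As background, GCGR is abundant on hepatocytes and couples to cyclic AMP, which raises glucose output, amino acid breakdown and fat oxidation, whereas GLP1R acts mainly outside the hepatocyte, on pancreatic islets and the nervous system. After partial hepatectomy the remaining lobes grow back by division of mature hepatocytes, a process that involves cytokines, acute phase proteins and bile acids and that is largely over within weeks in mice. Many hepatic genes, including those of drug and bile acid metabolism, also follow the circadian clock, the growth hormone pattern that sets sex-biased expression, and the inflammatory state of the liver.

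Signals are log2 values relative to the 75th percentile of each array, so 0 is the level of the probe at that percentile. On the 16 arrays the share of probes well above background ran from 48.4% to 69.7% (median 53.6%) and 0 spots were saturated. The number of arrays limits the precision, and p-values measure the spread between livers. Of 10 hepatocyte defining markers 9 were tested, and their summed level in units of the 75th percentile was 4200 to 5690 in untreated, 4310 to 6410 in agonist, 2600 to 4360 in hepatectomy and 3200 to 5640 in agonist plus hepatectomy livers. The median correlation with the other arrays of its own group was 0.951 for hepatectomy liver 1, against 0.981 to 0.982 for the other 3 livers of that group. The untreated and the agonist group lay on different slides, so the agonist difference before hepatectomy cannot be told apart from a slide difference. The interaction subtracts that difference, so it too cannot be told apart from a slide difference. Both groups after hepatectomy shared a slide, in separate rows. The slides before and after hepatectomy were read on different scanners. In the authors' deposited value table the columns of the MCD and the standard diet agonist groups are exchanged relative to the scanner files, before and after hepatectomy alike, and the scanner files were followed here. In them Scd1, a fatty acid desaturase known to be low on MCD diet, had means of 7.36 ± 0.30 (SD, n = 4) in untreated, 7.61 ± 1.29 (SD, n = 3) in agonist, 8.14 ± 0.16 (n = 4) in hepatectomy and 7.66 ± 0.39 (n = 4) in agonist plus hepatectomy livers. The MCD groups in the same order had means of 4.93, 3.16, 5.35 and 4.38, all below the standard diet groups. With the table's columns as labelled, 723 genes had an interaction, and of the 60 genes described next 11 were among them and 49 had the same sign.

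Most genes with an interaction had moved with the agonist in intact liver and had much smaller agonist differences after hepatectomy. In the limma fit over 21710 genes, 60 had an interaction at an adjusted p (Benjamini-Hochberg) under 0.05, which is 0.276% of those tested. In 34 the agonist difference was higher after hepatectomy (0.157%) and in 26 it was lower (0.12%). At an unadjusted p under 0.05 there were 2723 genes (12.5%), 1344 higher (6.19%) and 1379 lower (6.35%). The list counts below stand beside these shares of all genes and beside the 0.157% and 0.12% that passed. Before hepatectomy 1414 genes (6.51%) differed between agonist and untreated livers, 718 higher (3.31%) and 696 lower (3.21%). After hepatectomy 2 genes (0.00921%) differed, Cyp2b9 and Cyp2b13, both higher with agonist, and 559 had an unadjusted p under 0.05.

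The count of 60 was sensitive to single livers and to scaling. It was 19, 27 or 29 without untreated liver 1, 2 or 3. It was 8, 30 or 155 without agonist liver 1, 3 or 4, and 35, 10 or 92 without hepatectomy liver 1, 2 or 4. Leaving out agonist plus hepatectomy liver 1, 2, 3 or 4 gave 28, 13, 6 or 91. A fit to the 16 arrays alone called 8 genes, 6 of them among the 60. Scaling to the array median moved the median interaction of all genes from 0.02 to -0.23 and gave 15 higher and 28 lower genes, 34.9% higher against 56.7%. The called genes kept their sign in every setting computed from the scanner files, 59 of the 60 being tested under the filter on the standard diet groups and all 60 in the others. The 1414 genes before hepatectomy became 936 without untreated liver 1, 490 without agonist liver 1 and 613 without agonist liver 3. The count after hepatectomy was 1 without untreated liver 4, agonist liver 3 or 4, hepatectomy liver 2 or 4, or agonist plus hepatectomy liver 2 or 3, and 7 without hepatectomy liver 1.

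Of the 34 genes with a higher interaction, 33 had fallen with the agonist before hepatectomy and passed no test after it. Their median agonist difference was -2.34 before and 0.49 after. The remaining gene, Cyp2b9, passed only after hepatectomy. Of the 26 genes with a lower interaction, 25 had risen with the agonist before hepatectomy, and the median agonist difference was 1.88 before and -0.43 after. The sign of the agonist difference was opposite before and after in 30 of the 34 and in all 26. These genes were chosen by the double difference of the same livers, a choice that favours opposite signs, so the counts are descriptive. Sizes ran from 1.26 to 5.92 among the 34 and from 1.08 to 5.68 among the 26. A symbol of the reference table was available for 39 of the 60.

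**Figure D1:**
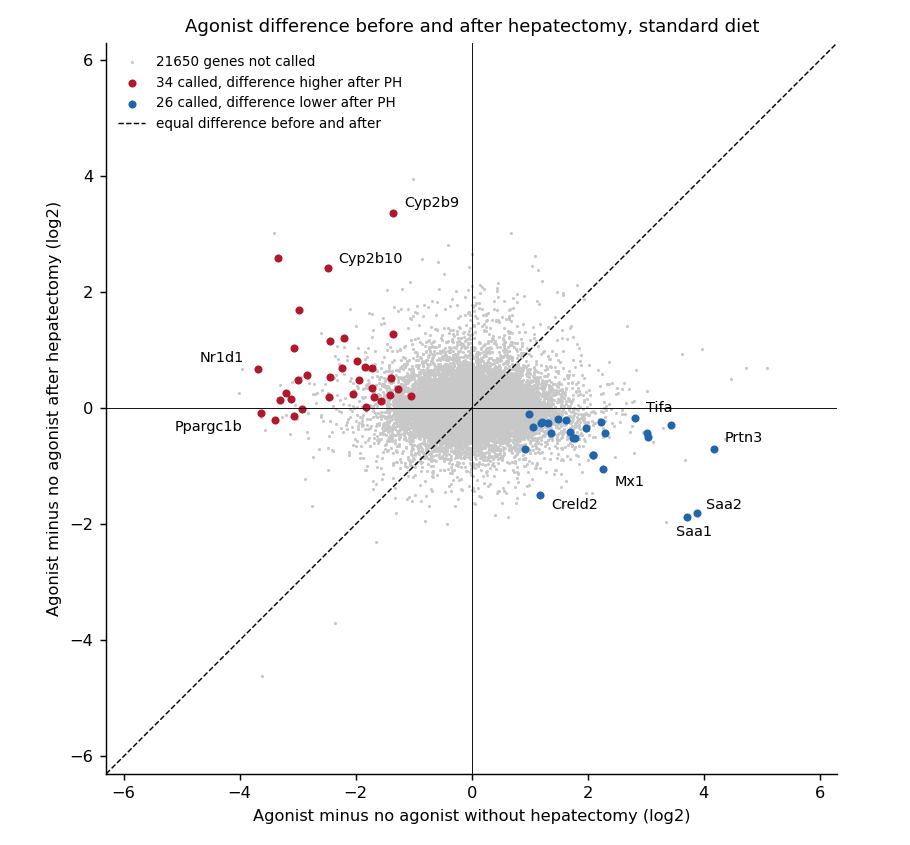
Each point is 1 gene, with the agonist minus no agonist difference without hepatectomy on the horizontal axis and after hepatectomy on the vertical axis, both in log2. The 34 genes with a higher interaction lie to the upper left of the dashed line of equal differences, at a median of -2.34 before and 0.49 after, and the 26 with a lower interaction lie to its lower right, at 1.88 and -0.43.

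The agonist differences of the wider set were also small after hepatectomy. The 718 genes that had risen with the agonist in intact liver had a median difference of 1.20 there and of -0.03 after hepatectomy, where 331 (46.1%) kept the sign. The 696 genes that had fallen had medians of -1.21 and -0.02, and 369 (53%) kept the sign. A difference beyond 1 on the log2 scale was present in 504 of the 718 (70.2%) before and in 10 (1.39%) after hepatectomy. For the 696 it was 495 (71.1%) before and 15 (2.16%) after, against 2093 (9.64%) before and 478 (2.20%) after among all genes. These genes were chosen by the contrast before hepatectomy, so their sizes on that side are given as a description. The contrast after hepatectomy compared 8 other livers.

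Hepatectomy without agonist differed from untreated liver in the same direction as the agonist did in 33 of the 34 genes and in all 26. In livers without agonist, the 34 genes differed between hepatectomy and untreated livers by a median of -1.19, and the 26 genes by a median of 1.54. With agonist, the hepatectomy difference had a median of 1.44 in the 34 and of -0.82 in the 26. Untreated livers had the highest mean of the 4 groups in 24 of the 34 genes, and agonist livers the lowest in 31. Among the 26, untreated livers had the lowest mean in 24 and agonist livers the highest in 21. These contrasts share livers with the interaction and run between slides and scanners, so the medians only describe how it was made up.

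**Figure D2:**
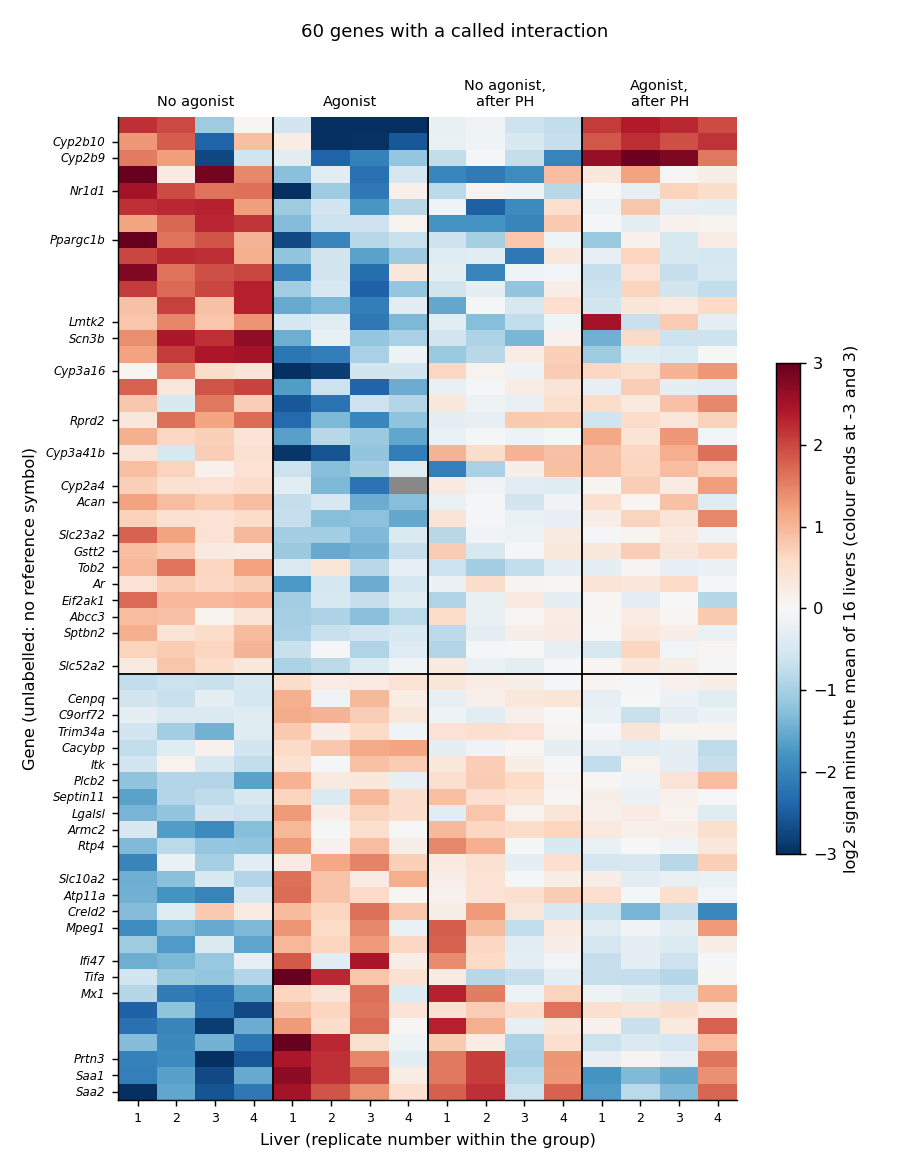
Rows are the 60 genes with an interaction and columns the 16 livers in their 4 groups of 4, and colour is the log2 signal minus the gene's mean over the 16 livers. Untreated livers are mostly red in the upper block of 34 genes and blue in the lower block of 26, agonist livers mostly the reverse, and the upper rows with Cyp2b10 and Cyp2b9 are also red in agonist plus hepatectomy livers (grey marks the left-out Cyp2a4 spot).

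On the same pair of slides as the untreated and the agonist group lay the corresponding MCD groups. In them the agonist difference before hepatectomy had a median of -0.20 over the 34 genes, with the sign of the standard diet in 21 (61.8%), and of -0.26 over the 26, with the same sign in 8 (30.8%). Over the 718 and the 696 genes the MCD medians were -0.06 and 0.12, with the same sign in 46.9% and 40.5%. These medians hold both any slide difference shared by the diets and the agonist difference on MCD diet, which cannot be told apart.

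The circadian clock was led by Nr1d1, which encodes the nuclear receptor REV-ERBα, a repressor in the core feedback loop. Its array probe, at chr11:98630526-98631028 on the minus strand of mm9 (60 bases over a span of 503), is shown to identify the transcript measured, with no base singled out.
Nr1d1 probe: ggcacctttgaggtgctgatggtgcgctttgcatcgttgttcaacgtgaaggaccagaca

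Nr1d1 read 3.73, 3.20, 2.85 and 2.90 in the untreated livers and -2.72, 0.16, -0.91 and 1.38 in the agonist livers. After hepatectomy it read 0.43, 1.33, 1.07 and 0.40 without agonist and 1.25, 0.98, 1.91 and 1.77 with it. The untreated livers were all above the agonist livers, while the groups after hepatectomy overlapped. Nr1d1 fell 12.9-fold with the agonist before hepatectomy (log2 -3.69 ± 0.47 SE, adjusted p 0.000136), against 0.67 ± 0.47 after. Its interaction was 4.36 ± 0.66 (SE, limma adjusted p 0.00199), and it passed the threshold in 25 of 26 other settings.

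Other output genes of the clock had interactions of the same sign that missed the threshold. Dbp, a PAR-domain transcription factor driven directly by the clock, read 6.28, 6.70, 3.66 and 5.10 in untreated and 0.30, 0.28, 0.56 and 4.79 in agonist livers, so that agonist liver 4 lay within the untreated range. In hepatectomized livers it read 3.67, 0.69, 3.0 and 0.74 without and 1.65, 1.56, 2.23 and 5.35 with agonist. Its interaction was 4.63 ± 1.18 (adjusted p 0.0766), and that of Hlf, a factor of the same family, was 1.37 ± 0.35 (adjusted p 0.0782). Arntl, which encodes the activator BMAL1 and peaks in antiphase to Nr1d1, had the opposite sign, at -2.42 ± 0.90 (adjusted p 0.246). Arntl read -1.42, -1.10, 0.41 and 0.08 in untreated and 2.15, 1.92, 2.79 and 0.71 in agonist livers, without overlap. Of 18 clock genes tested, 1 passed and 15 had a positive interaction, with a median of 1.41 against 0.02 over all genes. At an unadjusted p under 0.05, 9 were higher and 2 lower, beside 6.19% and 6.35% of all genes. The labels give no time of day of sampling. Of 15 clock genes with a promoter in the RefSeq table (GRCm38.p6), 4 held the E-box CACGTG within 250 bases before the start (Tef, Ciart, Bhlhe41 and Per1), against 6.86% of all 27025 promoters searched on both strands.

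Cytochrome P450 genes of the Cyp2b, Cyp2a and Cyp3a families had positive interactions, those of Cyp2b10 and Cyp2b9 being the largest among named genes that passed. These enzymes oxidise drugs and steroids, and several are expressed more in female than in male mouse liver. Of 31 xenobiotic P450 and regulator genes tested, 4 had a higher interaction (Cyp2b10, Cyp2b9, Cyp2a4 and Cyp3a16) and 0 a lower one, beside 0.157% and 0.12% of all genes. The median was 0.72 and 28 were positive, and 10 were higher at an unadjusted p under 0.05 with 0 lower. Members of each family are near-identical in sequence, so a probe may read more than its named gene.

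Cyp2b10, the classic target of the constitutive androstane receptor, read 3.23, 3.76, -0.48 and 2.84 in untreated and 2.15, -1.07, -1.04 and -0.61 in agonist livers. Following surgery it read 1.73, 1.80, 1.48 and 1.24 without and 3.79, 4.14, 3.87 and 4.11 with agonist. The groups overlapped before hepatectomy and were fully apart after it. The agonist difference was -2.48 ± 0.61 before (adjusted p 0.0169) and 2.42 ± 0.61 after (unadjusted p 0.000477, adjusted p 0.796), and the interaction was 4.90 ± 0.87 (adjusted p 0.0159). Nr1i3, which encodes that receptor, had an interaction of 1.82 that missed the threshold (adjusted p 0.063).

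Cyp2b9, a female-biased P450, was dimmer. Its probe, shown because Cyp2b9 was the only gene called both in the interaction and after hepatectomy, lies at chr7:26983484-26983543 on the plus strand of mm9.
Cyp2b9 probe: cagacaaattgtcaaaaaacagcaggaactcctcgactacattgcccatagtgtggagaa

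Cyp2b9 read -2.11, -2.40, -6.41 and -4.25 in untreated, -3.99, -6.06, -5.69 and -4.83 in agonist, -4.40, -3.73, -4.38 and -5.67 in hepatectomy and -1.05, -0.71, -0.86 and -2.08 in agonist plus hepatectomy livers. It was well above background on 2, 1, 2 and 4 arrays of those groups. Every agonist plus hepatectomy liver was above every hepatectomy liver. Cyp2b9 rose 10.3-fold with the agonist after hepatectomy (3.37 ± 0.60, adjusted p 0.0495), the difference before was -1.35 ± 0.60 (adjusted p 0.180), and the interaction was 4.72 ± 0.85 (adjusted p 0.0165). Cyp2b13 was not well above background on any untreated or hepatectomy array and was so on all 4 agonist plus hepatectomy arrays, where it was at least 2.98-fold higher than after hepatectomy alone (adjusted p 3.08e-05). Its interaction of 1.54 ± 0.43 missed the threshold (adjusted p 0.109).

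Cyp2a4, a steroid hydroxylase, read 7.81, 7.56, 7.52 and 7.63 in untreated livers and 6.75, 5.75 and 4.88 in 3 agonist livers, the spot of agonist liver 4 having been left out as an outlier within its array. After partial hepatectomy the values were 7.37, 6.99, 6.76 and 6.73 without and 7.17, 7.83, 7.34 and 8.35 with agonist. All agonist livers lay below the untreated ones, and the groups overlapped after hepatectomy. The interaction was 2.55 ± 0.43 (adjusted p 0.00841). Cyp3a16, from a fetal and female-biased branch of the Cyp3a family, read 4.93, 6.36, 5.41 and 5.25 in untreated and 1.52, 2.04, 4.31 and 4.31 in agonist livers. It read 5.48, 4.96, 4.73 and 5.64 after hepatectomy and 5.49, 5.38, 5.89 and 6.18 with both. Only the agonist livers without hepatectomy stood low. The interaction was 2.97 ± 0.64 (adjusted p 0.0356), and that of its close relative Cyp3a41b was 2.67 ± 0.53 (adjusted p 0.0274). Of 12 female-biased genes tested, 3 passed, all of them P450 genes already counted, and 11 were positive with a median of 1.48. The agonist difference of these 12 had a median of -0.14 before and 1.35 after hepatectomy.

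**Figure D3:**
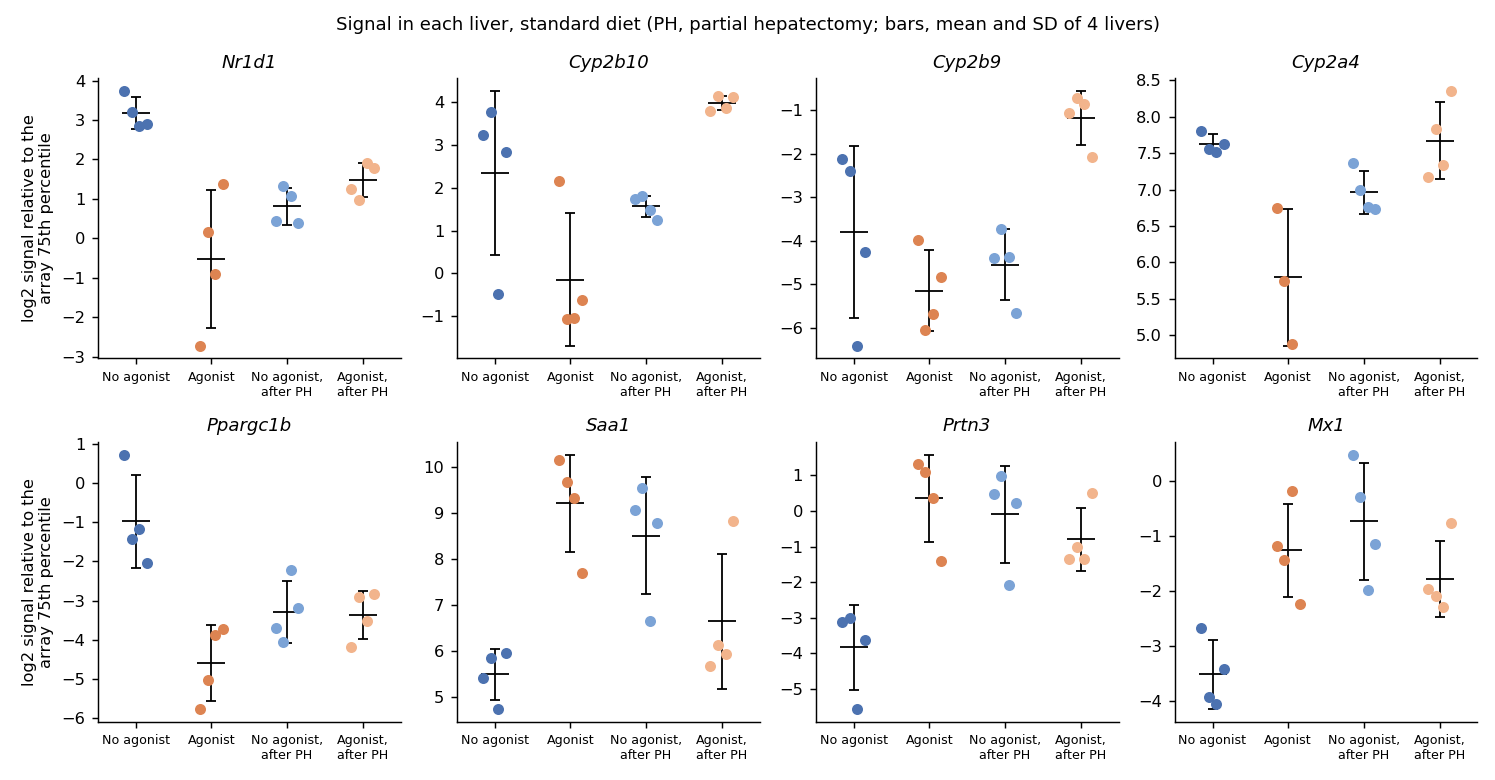
Points are the log2 signals, relative to the 75th percentile of the array, of the 4 livers in each standard diet group for 8 genes with an interaction, and bars are the mean and SD (3 livers for Cyp2a4 with agonist). Cyp2b10 with agonist after hepatectomy runs from 3.79 to 4.14, above the 1.24 to 1.80 of hepatectomy alone, whereas Saa1 runs from 4.75 to 5.97 in untreated and from 7.70 to 10.15 in agonist livers.

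Ppargc1b, which encodes PGC-1β, a coactivator of mitochondrial and lipid genes, read 0.73, -1.43, -1.17 and -2.05 in untreated and -5.77, -5.04, -3.88 and -3.73 in agonist livers. After hepatectomy it read -3.69, -4.07, -2.23 and -3.19 without and -4.18, -2.92, -3.53 and -2.84 with agonist. The untreated livers stood above all 12 others. It fell 12.3-fold with the agonist before hepatectomy (-3.62 ± 0.54, adjusted p 0.000528), against -0.07 ± 0.54 after, with an interaction of 3.55 ± 0.77 (adjusted p 0.0356). The probe was well above background on only 2 of the agonist arrays. The related coactivator Ppargc1a had an interaction of 0.22 ± 0.68 (adjusted p 0.934).

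Genes of conjugation and transport were also among those with a higher interaction. Abcc3, the basolateral exporter of bile acid and drug conjugates, read 6.52, 6.46, 5.68 and 5.96 in untreated, 4.60, 4.66, 4.33 and 4.79 in agonist, 6.14, 5.37, 5.64 and 5.81 in hepatectomy and 5.63, 5.82, 5.65 and 6.36 in agonist plus hepatectomy livers. The agonist livers without hepatectomy were below all other livers. It fell 2.95-fold with the agonist before hepatectomy (-1.56 ± 0.27, adjusted p 0.00128) and had an interaction of 1.68 ± 0.38 (adjusted p 0.0441). Gstt2, a theta-class glutathione transferase, read 4.85, 4.70, 4.20 and 4.16 in untreated and 2.83, 2.43, 2.52 and 3.26 in agonist livers, and 3.47 to 4.70 in the 8 livers after hepatectomy. It had an interaction of 2.07 ± 0.43 (adjusted p 0.0351) after a 3.29-fold fall before hepatectomy. Slc23a2, a vitamin C transporter, had one of 2.30 ± 0.50 (adjusted p 0.0366). Slc23a2 read 0.80, 0.24, -0.55 and 0.01 in untreated livers, above the -2.31 to -0.69 of the 12 others. Of 20 genes of bile acid synthesis and transport, Abcc3 was the 1 that passed, and the median was 0.29. Slc10a2, a bile acid transporter that is not on that list, passed in the opposite direction (-2.31). Cyp7a1, the rate-limiting enzyme of bile acid synthesis, had an interaction of -0.66 ± 1.26 (adjusted p 0.884). Of 26 conjugation enzymes 1 passed, with a median of 0.06 that was -0.19 under median scaling.

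The other named genes with a higher interaction were Scn3b, Acan and Tob2. Scn3b, a sodium channel beta subunit, read -0.64, 0.38, 0.16 and 0.63 in untreated and -3.50, -2.26, -3.19 and -3.0 in agonist livers. It read -2.60, -2.95, -3.41 and -1.91 after hepatectomy and -3.48, -1.47, -2.65 and -2.66 with both, so the untreated livers stood above all others, and its interaction was 3.28 ± 0.69 (adjusted p 0.0355). Acan, the cartilage proteoglycan aggrecan, read 0.11, -0.18, -0.35 and -0.19 in untreated and -1.83, -1.59, -2.60 and -2.37 in agonist livers, without overlap. It had an interaction of 2.44 ± 0.51 (adjusted p 0.0355), and was the only 1 of the 39 named genes to pass in the fit to the 16 arrays alone (adjusted p 0.0454). Tob2, an antiproliferative factor of the BTG/TOB family, had an interaction of 1.91 ± 0.38 (adjusted p 0.0283). Tob2 read 4.33, 4.95, 3.98 and 4.54 in untreated livers, above the 2.33 to 3.71 of the 12 other livers.

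Serum amyloid A genes had the largest negative interactions among named genes that passed. Saa1 and Saa2 encode acute phase apolipoproteins that hepatocytes secrete in response to interleukin 6 and interleukin 1. The Saa1 probe lies at chr7:53996070-53996129 on the minus strand of mm9. The sequences before the start of both genes are shown because they moved together, with a match to TTGCNNAA, the core letters bound by C/EBP factors, in capitals. They come from the RefSeq table (GRCm38.p6), at chr7:46742981-46743230 on the minus strand for Saa1 and chr7:46751583-46751832 on the plus strand for Saa2.
Saa1 probe: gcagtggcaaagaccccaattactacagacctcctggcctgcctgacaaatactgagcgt
Saa1 promoter: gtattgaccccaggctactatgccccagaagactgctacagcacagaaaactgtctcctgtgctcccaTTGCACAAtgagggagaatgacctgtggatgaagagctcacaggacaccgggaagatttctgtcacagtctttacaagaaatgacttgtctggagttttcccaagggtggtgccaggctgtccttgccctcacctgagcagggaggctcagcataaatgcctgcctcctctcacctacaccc
Saa2 promoter: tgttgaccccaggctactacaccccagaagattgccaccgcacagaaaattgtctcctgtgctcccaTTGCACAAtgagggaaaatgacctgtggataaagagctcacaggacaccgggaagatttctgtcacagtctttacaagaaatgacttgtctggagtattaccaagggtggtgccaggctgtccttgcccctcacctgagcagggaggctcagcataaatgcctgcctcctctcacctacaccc

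The 2 stretches matched at 238 positions with 11 mismatches and 2 gaps (95.6% identity), and the match began 182 bases before the start in Saa1 and 183 in Saa2. The same letters were found in 14 of 24 acute phase promoters, 8 of 29 promoters of genes with an interaction and 10.8% of all promoters. The coding sequences of the pair are also near-identical, so their probes may not be independent.

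Saa1 read 5.43, 5.85, 4.75 and 5.97 in untreated and 10.15, 9.67, 9.33 and 7.70 in agonist livers. In hepatectomized livers it read 9.06, 9.55, 6.67 and 8.78 without and 5.68, 6.14, 5.94 and 8.84 with agonist. Agonist livers were all above untreated ones. After hepatectomy the groups overlapped through agonist plus hepatectomy liver 4, and hepatectomy liver 3 was the lowest of its group. Saa1 rose 13.1-fold with the agonist before hepatectomy (3.71 ± 0.77, adjusted p 0.00559), the difference after was -1.87 ± 0.77 (unadjusted p 0.0222, adjusted p 1), and the interaction was -5.58 ± 1.09 (adjusted p 0.0274). Saa2 read 3.46, 4.90, 3.87 and 4.32 in untreated, 8.96, 8.35, 7.80 and 6.95 in agonist, 8.24, 8.65, 5.81 and 8.24 in hepatectomy and 4.75, 5.65, 5.14 and 8.20 in agonist plus hepatectomy livers. In each group after hepatectomy the same livers were highest and lowest as for Saa1. The Saa2 interaction was -5.67 ± 1.12 (adjusted p 0.0274).

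Of 28 acute phase genes tested, these 2 passed, both lower. The median was -0.37, with 20 negative and 8 positive, and 7 were lower at an unadjusted p under 0.05 with 0 higher. Before hepatectomy 6 of the 28 had risen and the median agonist difference was 0.56, against 0.12 after. Lcn2, which encodes the siderophore-binding lipocalin 2, read 1.58, 2.26, 2.11 and 2.40 in untreated and 8.78, 7.24, 6.14 and 3.64 in agonist livers. It read 9.11, 7.43, 3.20 and 6.05 after hepatectomy and 4.66, 4.73, 5.0 and 9.27 with both. Its interaction of -4.90 ± 1.40 missed the threshold (adjusted p 0.124), with wide scatter among hepatectomy livers. Mt1 and Mt2, the zinc-binding metallothioneins, had interactions of -3.97 ± 1.00 and -4.38 ± 1.16 (adjusted p 0.0758 and 0.0947). They had risen 22.1-fold and 33.8-fold with the agonist before hepatectomy, and the differences after it were 0.50 ± 0.71 and 0.70 ± 0.82.

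Interferon response genes leaned in 1 direction. All 29 tested had a negative interaction, 2 passed (Mx1 and Rtp4, 0 higher) and the median was -1.25. Of the 29, 18 (62.1%) were lower at an unadjusted p under 0.05 and 0 higher, beside 6.35% and 6.19% of all genes. Before hepatectomy 9 of the 29 had risen with the agonist, with a median difference of 1.01, and after it the median was -0.31. Their summed level was 214 to 250 in untreated, 298 to 577 in agonist, 257 to 487 in hepatectomy and 239 to 310 in agonist plus hepatectomy livers, the first 2 ranges being apart.

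Mx1, an antiviral GTPase, read -2.67, -3.93, -4.06 and -3.43 in untreated and -1.18, -1.43, -0.18 and -2.24 in agonist livers. Following surgery it read 0.49, -0.28, -1.98 and -1.14 without and -1.97, -2.09, -2.30 and -0.76 with agonist. The groups were apart before hepatectomy and overlapped after it, and the probe was well above background on 1 untreated array. The interaction was -3.32 ± 0.67 (adjusted p 0.0294). Rtp4, an interferon-induced chaperone of receptor trafficking, read 2.21, 2.74, 2.38 and 2.37 in untreated, 4.83, 3.67, 4.48 and 3.71 in agonist, 4.98, 4.61, 3.51 and 3.09 in hepatectomy and 3.34, 3.52, 3.41 and 3.85 in agonist plus hepatectomy livers. The untreated livers were the lowest 4. Its interaction was -2.26 ± 0.49 (adjusted p 0.0356). Ifi47, an interferon-inducible GTPase outside that list, read 2.62, 2.72, 2.95 and 3.82 in untreated and 5.91, 3.74, 6.53 and 4.28 in agonist livers, with an overlap of 1 liver each. It had an interaction of -2.90 ± 0.60 (adjusted p 0.0354). The letters GAAANNGAAA, the core of the interferon-stimulated response element, were found in 13 of 20 interferon response promoters in the table, against 3.46% of all promoters and 0 of 29 promoters of genes with an interaction. Only those 29 of the 60 genes had a promoter in the table. Mx1 and Rtp4 had none there, so theirs were not searched.

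Markers of myeloid cells leaned the same way. All 10 Kupffer cell markers tested had a negative interaction, with a median of -1.37 and 0 calls, and 6 were lower at an unadjusted p under 0.05. Before hepatectomy 5 of the 10 had risen with the agonist, with a median of 1.38, against -0.08 after. Vsig4, a complement receptor of resident macrophages, read 1.47, 2.66, 2.21 and 2.37 in untreated and 5.28, 4.10, 3.77 and 4.0 in agonist livers, and had an interaction of -2.18 ± 0.63 (adjusted p 0.129). The summed Kupffer level was 128 to 191 in untreated, 252 to 334 in agonist, 197 to 585 in hepatectomy and 225 to 568 in agonist plus hepatectomy livers. For 16 recruited macrophage markers the median interaction was -1.70, all 16 were negative, 0 passed and 6 were lower at an unadjusted p under 0.05. Their summed level was 18.4 to 26.2 in untreated, 37.6 to 45.1 in agonist, 25.4 to 309 in hepatectomy and 29.6 to 189 in agonist plus hepatectomy livers. Of 9 dendritic cell and MHC class II genes 0 passed, 7 were negative and 2 positive, and the median was -1.50. There 5 were lower and 1 higher at an unadjusted p under 0.05. Under normexp background correction the Kupffer, recruited macrophage and dendritic cell medians were -1.05, -1.07 and -0.94. With it 3, 2 and 3 genes of these lists were lower at an unadjusted p under 0.05. In whole liver, fewer cells of a type and less RNA per cell cannot be told apart. The part of these markers in the acute phase and interferon interactions was not tested.

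Among genes of myeloid cells, Mpeg1 and Prtn3 passed. Mpeg1, the pore-forming perforin 2 of macrophages, read 2.87, 3.39, 3.22 and 3.38 in untreated and 6.06, 5.29, 6.16 and 4.54 in agonist livers. It read 6.55, 5.68, 3.99 and 5.02 after hepatectomy and 4.42, 4.63, 4.47 and 6.01 with both, and untreated livers were below all others. The interaction was -2.73 ± 0.62 (adjusted p 0.0483). Prtn3 encodes proteinase 3, a serine protease stored in neutrophil granules. Its probe lies at chr10:79343869-79344685 on the plus strand of mm9 (60 bases over a span of 817) and is shown because this was the only neutrophil marker with an interaction.
Prtn3 probe: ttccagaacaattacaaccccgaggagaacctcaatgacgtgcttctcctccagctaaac

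Prtn3 read -3.12, -2.99, -5.56 and -3.63 in untreated and 1.33, 1.11, 0.37 and -1.39 in agonist livers. After partial hepatectomy the values were 0.49, 0.98, -2.07 and 0.24 without and -1.34, -1.0, -1.34 and 0.51 with agonist. The untreated livers were the lowest 4. As for Saa1, hepatectomy liver 3 was the lowest of its group and agonist plus hepatectomy liver 4 the highest of its own. Prtn3 rose 18.1-fold with the agonist before hepatectomy (4.18 ± 0.68, adjusted p 0.000874), and the interaction was -4.88 ± 0.96 (adjusted p 0.0274). Of 15 neutrophil markers tested it was the 1 that passed. Elane, the companion protease of the same granules, had an interaction of -0.74 (adjusted p 0.62). The list median was -0.55, and 0.07 under normexp background correction. The summed neutrophil level was 56.2 to 93.1 in untreated, 100 to 172 in agonist, 101 to 118 in hepatectomy and 77.6 to 142 in agonist plus hepatectomy livers.

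Chaperones of the endoplasmic reticulum had a different make-up, with Creld2 as the 1 call among 20. Creld2, a secreted chaperone induced by the unfolded protein response, read 4.49, 5.43, 6.57 and 6.04 in untreated and 6.76, 6.44, 7.46 and 6.60 in agonist livers. After hepatectomy it read 5.96, 7.07, 6.14 and 5.31 without and 5.14, 4.39, 5.10 and 3.86 with agonist. The groups overlapped before hepatectomy, and after it every liver with agonist was below every liver without. The agonist difference was 1.18 ± 0.38 before (adjusted p 0.0601) and -1.50 ± 0.38 after (unadjusted p 0.00053, adjusted p 0.822), and neither passed alone. The interaction was -2.68 ± 0.54 (adjusted p 0.0310). Of the 20, 17 were negative, the median was -0.62, and 7 were lower and 1 higher at an unadjusted p under 0.05. The Creld2 promoter is shown because it holds the letters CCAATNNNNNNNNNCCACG, the endoplasmic reticulum stress element, whose match on the reverse strand begins 126 bases before the start and has its fixed letters in capitals. It lies at chr15:88819396-88819645 on the plus strand of GRCm38.p6 in the RefSeq table.
Creld2 promoter: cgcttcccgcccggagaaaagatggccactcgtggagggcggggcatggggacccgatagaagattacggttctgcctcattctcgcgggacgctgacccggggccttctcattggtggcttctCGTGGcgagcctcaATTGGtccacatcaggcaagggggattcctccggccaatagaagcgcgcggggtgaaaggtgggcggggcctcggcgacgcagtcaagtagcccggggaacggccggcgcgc

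These letters were found in 9 of 18 promoters of the chaperone list, in 1 of 29 promoters of genes with an interaction (Creld2 itself) and in 35 promoters, or 0.13%, of all genes. Among 18 heat shock chaperones 0 passed, with a median of -0.45 and 7 lower at an unadjusted p under 0.05. Hsp90aa1, the inducible cytosolic chaperone, had an interaction of -1.73 ± 0.41 (adjusted p 0.0626).

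The other named genes with a lower interaction were of mixed function. Tifa, an adaptor of innate immune signalling, read 2.60, 2.07, 2.03 and 2.31 in untreated and 7.16, 5.44, 4.02 and 3.65 in agonist livers. It read 3.43, 2.35, 2.50 and 2.88 after hepatectomy and 2.49, 2.47, 2.34 and 3.21 with both, so that only agonist livers without hepatectomy stood high. Its interaction was -2.98 ± 0.65 (adjusted p 0.0367). Slc10a2, the apical sodium-dependent bile acid transporter, read 1.27, 1.47, 2.28 and 1.85 in untreated, 4.37, 3.59, 2.98 and 3.83 in agonist, 2.93, 3.17, 2.70 and 2.89 in hepatectomy and 2.91, 2.41, 2.50 and 2.53 in agonist plus hepatectomy livers. The untreated livers were the lowest 4. The interaction was -2.31 ± 0.49 (adjusted p 0.0356). Atp11a, a phospholipid flippase, read 1.19, 0.83, 0.63 and 2.14 in untreated and 4.32, 3.5, 3.21 and 2.67 in agonist livers, without overlap. It had an interaction of -2.46 ± 0.49 (adjusted p 0.0274), and Lgalsl, a galectin-like protein, one of -1.83 ± 0.41 (adjusted p 0.0482). For 4 of the genes called higher and 1 of those called lower in the interaction, a group had no array well above background. The 3 of them with a reference symbol are given here. Rprd2 was at least 5.51-fold higher in untreated than in agonist livers, and Lmtk2 at least 2.37-fold. Armc2 was at least 1.90-fold higher in agonist than in untreated livers. Their interactions were 2.91 ± 0.55, 3.41 ± 0.73 and -2.11 ± 0.44 (adjusted p 0.0215, 0.0356 and 0.0354). Under normexp background correction they were 0.90, 0.74 and -0.37 (adjusted p 0.212, 0.232 and 0.563), and none of the 3 passed.

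**Figure D4:**
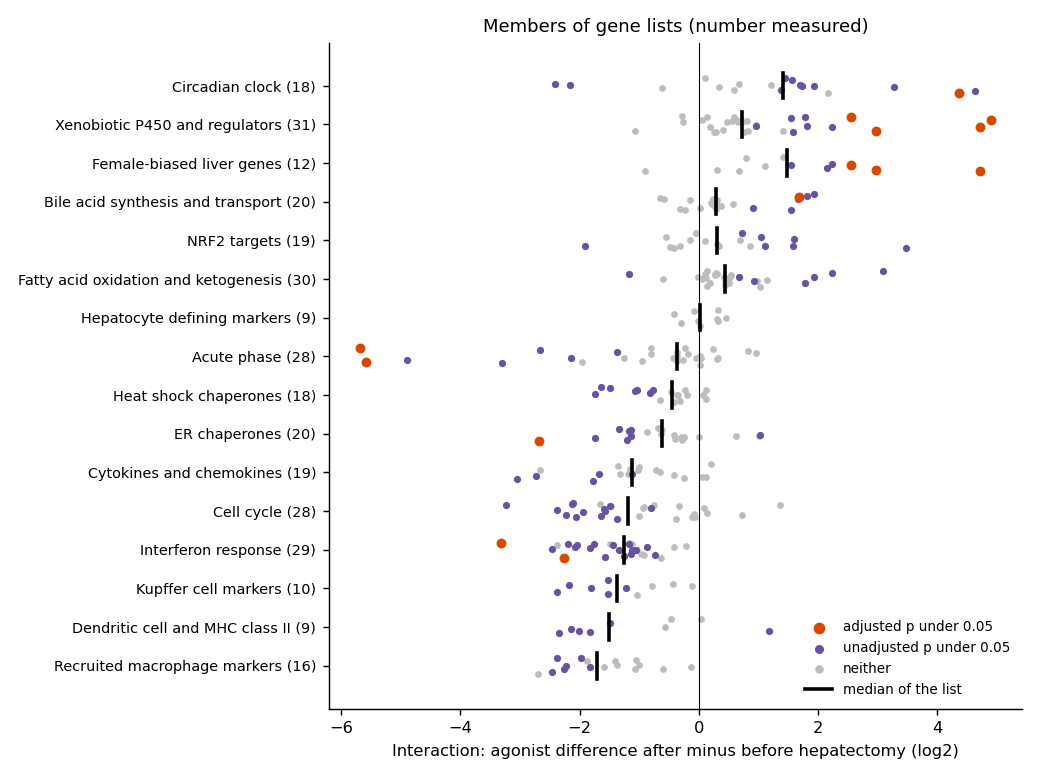
Points are the interactions (log2) of the tested members of 16 gene lists, orange at an adjusted p under 0.05, purple at an unadjusted p under 0.05 and grey otherwise, with the list median as a black bar. Medians run from 1.48 for female-biased and 1.41 for clock genes to -1.70 for recruited macrophage markers, beside 0.02 over all genes.

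The agonist's own receptors and the main metabolic lists had no call. Gcgr read 7.47, 7.40, 7.33 and 7.67 in untreated and 8.17, 7.70, 7.88 and 7.95 in agonist livers, and 6.43, 7.37, 7.42 and 7.10 after hepatectomy against 6.96, 7.20, 7.05 and 6.61 with both. Its interaction was -0.58 ± 0.34 (adjusted p 0.497). Glp1r was well above background on 2, 1, 4 and 4 arrays of the untreated, agonist, hepatectomy and agonist plus hepatectomy groups, and its interaction was 0.56 ± 0.68 (adjusted p 0.792). Of 18 genes of receptor and cyclic AMP signalling 0 passed and 2 were lower at an unadjusted p under 0.05. Of 14 gluconeogenic genes 0 passed, with 2 higher and 1 lower at that level, beside 6.19% and 6.35% of all genes. Pck1, which makes phosphoenolpyruvate, had an interaction of 0.39 ± 0.48 (adjusted p 0.794). Of 20 lipogenic genes and 25 of cholesterol synthesis 0 passed, with medians of -0.03 and -0.22 and 0 in either list higher or lower at an unadjusted p under 0.05. Among 30 genes of fatty acid oxidation and ketogenesis 0 passed, 27 were positive and the median was 0.43, with 6 higher and 1 lower at an unadjusted p under 0.05. Fgf21, a fasting hormone of the liver, scattered widely. It read -2.59, 2.61, -0.58 and 2.95 in agonist livers and 1.09, 0.01, 1.0 and -3.42 in agonist plus hepatectomy livers, with an interaction of 2.34 ± 1.27 (adjusted p 0.455).

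Proliferation genes leaned lower without a call. Of 28 cell cycle genes 0 passed, 24 were negative and the median was -1.19. In that list 13 were lower at an unadjusted p under 0.05 and 0 higher, beside 6.35% and 6.19% of all genes. The median agonist difference was 0.56 before and -0.64 after hepatectomy. Under normexp background correction 8 were lower and 0 higher at that level, and the median interaction was -0.69. Mki67, the proliferation marker Ki-67, read -2.12, -1.46, -1.67 and -1.84 in untreated and -1.57, -1.20, 0.72 and -1.0 in agonist livers. It read 2.73, -0.13, -1.60 and 1.28 after hepatectomy and -0.36, 0.45, -0.73 and 1.08 with both, with wide scatter and overlap after hepatectomy. Its interaction was -1.47 ± 0.90 (adjusted p 0.513), that of Top2a, a mitotic topoisomerase, was -3.24 ± 1.08 (adjusted p 0.190), and that of Ccnd1, cyclin D1, was 0.09 ± 0.68 (adjusted p 0.973). Of 9 hepatocyte defining markers 0 passed and 0 were below an unadjusted p of 0.05, with a median of 0.02.

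The same double difference on the MCD diet compared the other 16 livers. There 242 genes (1.11%) passed, 63 higher and 179 lower, and 0 of the 60 were among them. The 34 genes had a median MCD interaction of 0.07 with 19 of the same sign, and the 26 a median of -0.12 with 16 of the same sign. Nr1d1 had an MCD interaction of 0.63 ± 0.66, Cyp2b10 of -0.50 ± 0.87, Cyp2b9 of -0.33 ± 0.85 and Mx1 of 1.30 ± 0.67. Saa1, Saa2 and Prtn3 kept the sign, at -2.19 ± 1.09, -2.29 ± 1.12 and -2.87 ± 0.96 (adjusted p 0.31, 0.30 and 0.12). The interactions on the 2 diets had a Pearson r of 0.0662 and a Spearman rho of 0.0586 over all genes, and genes do not count as replicates.

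The test of the difference between diets, limma on all 32 arrays, called 0 genes (0%). At an unadjusted p under 0.05 there were 2964, and the lowest adjusted p was 0.05168. Other settings called from 0 to 57 genes, and leaving out 1 liver gave 0 to 25. Among the 60, the difference between diets had an unadjusted p under 0.05 in 30 of the 34 and 22 of the 26, each in the direction of the standard diet, with which it shares arrays. For Mx1 it was -4.62 (adjusted p 0.0616), for Cyp2b10 5.40 (adjusted p 0.0728) and for Nr1d1 3.73 (adjusted p 0.0825). For Saa1 it was -3.39 (adjusted p 0.330). Whether the interaction depends on diet was thus not settled for any single gene.

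**Figure D5:**
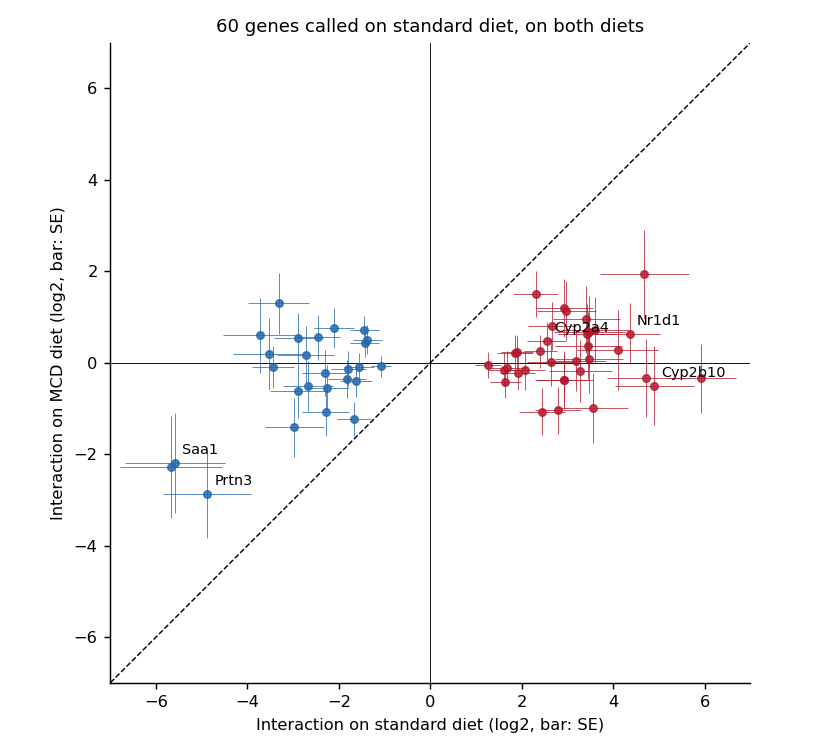
The 60 genes with an interaction on standard diet are plotted by that interaction (horizontal, log2) and by the same double difference on MCD diet (vertical, log2), with SE bars and a dashed line of equal values. Most lie near 0 on the vertical axis, at medians of 0.07 for the 34 and -0.12 for the 26, while Saa1 and Prtn3 lie at -2.19 and -2.87.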

How the data were processed

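Total RNA of the livers was labelled with Cy3 and hybridised to 1-colour oligonucleotide arrays, per the labels. Per the file headers, Feature Extraction 10.7.3.1 was used to quantify spots. The deposited processed signal, per the same headers, is a background-subtracted linear intensity. The deposited value table is on the log2 scale, with limma named in the submitters' processing notes and its centring unknown. Its column medians were 6.53 to 6.55 before and 7.05 to 7.06 after hepatectomy. In it 16 of 32 columns, 8 of them from standard diet groups, matched an array of another group best, of the same replicate number (rank correlation 0.9258 to 0.9803, against 0.8803 to 0.9374 for their own), so it served only as an alternative.

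Of 62976 spots 3671 controls were left out, as were 5010 outlier spots (0.264%), and the rest came from 55681 probes. Signals were log2-transformed and the 75th percentile of each array subtracted. A probe was kept (30139 in all) if in some group all 4 arrays had it well above background, and the probe with the highest mean stood for a gene. Of 21710 genes 15222 had a name matched in the GRCm38.p6 table and 6488 the file's name. Probe positions are those of the files on mm9, and exon or UTR was not looked up. One limma 3.58.1 fit (R 4.3.3) with a mean for each of 8 groups gave the contrasts, with Benjamini-Hochberg adjusted p under 0.05. A slide block could not be fitted. A gene dim on all arrays of a group has a bound, the bright group's mean against, per array, the higher of the dim value and the lowest signal well above background.

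The comparison, gene lists and naming rule were chosen with earlier results of these data known. Named were the 12 largest interactions in each direction among called genes with a reference symbol and some array above background in every group, up to 4 dim genes, up to 4 members per list with the smallest adjusted p, and preset focal genes. Cyp2b13, Nr1i3, Elane and the promoters listed by name were chosen after their values were seen. In all, 11 motifs were searched, and not all of them are described. The scripts were tested on simulated data. Alternatives were background correction (normexp, offset 50), scaling, filters, probe choice, outlier spots, groups fitted, replicate block, the value table, the threshold and each liver left out.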

Additional observations from a re-analysis of the deposited data

Results flagged for a closer look

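The interaction is itself a difference between effects, and 34 higher and 26 lower genes passed its test. Among named genes the higher log2 interactions were 4.90 for Cyp2b10, 4.72 for Cyp2b9, 4.36 for Nr1d1, 3.55 for Ppargc1b, 3.41 for Lmtk2, 3.28 for Scn3b, 2.97 for Cyp3a16 and 2.91 for Rprd2. They were 2.67 for Cyp3a41b, 2.55 for Cyp2a4, 2.44 for Acan, 2.30 for Slc23a2, 2.07 for Gstt2, 1.91 for Tob2 and 1.68 for Abcc3. The lower ones were -5.67 for Saa2, -5.58 for Saa1, -4.88 for Prtn3, -3.32 for Mx1, -2.98 for Tifa, -2.90 for Ifi47, -2.73 for Mpeg1 and -2.68 for Creld2. They were -2.46 for Atp11a, -2.31 for Slc10a2, -2.26 for Rtp4, -2.11 for Armc2 and -1.83 for Lgalsl.

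Single livers lay far from the other 3 of their group, by the gap to the nearest liver over the range of the group, in 6 of 131 groups of 33 genes, and chance gives about 1 in 20. Agonist liver 4 read 4.79 for Dbp, against 0.28 to 0.56. Agonist liver 1 read 2.15 for Cyp2b10, against -1.07 to -0.61. Agonist plus hepatectomy liver 4 read 8.84 for Saa1 (others 5.68 to 6.14), 9.27 for Lcn2 (4.66 to 5.0) and 6.01 for Mpeg1 (4.42 to 4.63). Hepatectomy liver 3 read 5.81 for Saa2, against 8.24 to 8.65.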

How the results depend on the processing

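None of the 39 called genes with a reference symbol changed sign in a setting built from the scanner files in which it was tested. Among named genes that were not called some did, such as Ppargc1a, positive in the main fit and -0.07 under normexp. Genes with a higher interaction numbered 60 under normexp, 15 under median scaling, 8 without a filter on dim probes, 6 with only the groups compared fitted, 67 from the value table with columns placed at the array they match, 356 from that table as labelled and 4 at an adjusted p under 0.01. Genes with a lower one numbered 2 without the filter, 2 with only the groups compared, 367 from the table as labelled and 1 at the stricter threshold. With 1 liver left out they ran from 5 to 76 and from 1 to 79.

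The agonist difference before hepatectomy called 812 genes without the filter and 267 with only the groups compared (490 to 1672 with 1 liver left out). After hepatectomy the count was 0 under normexp and 1 under quantile normalization, without the filter, with the mean over probes and with outlier spots kept (1 to 7). The MCD interaction called 4327 under normexp, 115 under median scaling, 141 under quantile normalization and 2574 without the filter (165 to 309). The difference between diets called 57, 47, 2 and 4 under those settings in turn and 1 with the filter on standard diet groups (0 to 25). The cause of these shifts was not tested.

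Livers with the same replicate number showed no evident shared deviation (median r 0.01 over 24 pairs, -0.207 to 0.444). Livers with other numbers had a median r of -0.004 over 72 pairs (-0.508 to 0.655). The main fit did not pair livers by number, and a weak pairing could not be seen in this way. With the number as a replicate block the interaction called 40 higher and 25 lower genes, 56 of the 60 among them, and the difference between diets called 1. Under normexp the interaction was 2.24 for Cyp2b9, 1.66 for Ppargc1b, -1.93 for Mx1 and -2.75 for Prtn3. Of 39 named genes 4 (Nr1d1, Cyp2b10, Cyp2b9 and Cyp2a4) passed without the filter. Of the 26 settings, Nr1d1, Cyp2b10 and Cyp2a4 passed in 25, Cyp2b9 in 24, Saa2 and Prtn3 in 18, Saa1 and Creld2 in 17, Mx1 in 13, Ppargc1b in 11 and Mpeg1 in 9.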
